A study of Mus musculus with 3 samples.

Results

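Interferon gamma, the receptor chains that read it and the type I interferons, and 3 of the transcription factors downstream were examined in single-cell RNA sequencing of mouse brain. The genes were taken by symbol from the gene list of the deposited count matrix: Ifng, Ifngr1, Ifngr2, Ifnar1, Ifnar2, Stat2, Irf1 and Irf7, 8 of 31053 genes, and all 8 were found. The study prepared 1 library from each of 3 groups of mice, labelled control, ischemic stroke and hemorrhagic stroke, all of strain C56BL6 (spelled as in the labels) at 10 weeks of age with no transgene named. Each library was made from dissociated brain tissue pooled over several mice, described as striatum in the study, and no source used here gives the interval between stroke and collection of these cells. The 3 libraries were deposited as a single matrix in which a cell carries only a barcode suffix of 1, 2 or 3, and no source used here pairs a suffix with a condition. Suffixes are therefore described as 3 unnamed libraries, no condition was compared with another, and no p-value is given, because cells of 1 library are not replicates.

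Interferon gamma is a cytokine made mainly by T cells and natural killer (NK) cells. It binds a receptor of 2 chains: IFNGR1, which carries the ligand-binding site, and IFNGR2, which brings in the kinase JAK2 and is needed for signalling. Type I interferons such as interferon beta use a different pair, IFNAR1 and IFNAR2, and signal through a complex that holds STAT2 and IRF9. IRF1 is a transcription factor induced early by interferon gamma, and IRF7 is a factor induced by type I interferon that in turn drives type I interferon genes. In the brain, microglia are the resident macrophages that respond to both kinds of interferon.

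Of the 8 genes, 3 lie on chromosome 10 of the mouse genome (GRCm38, the mm10 build named for these data), all on the plus strand: Ifngr1 at chr10:19591949-19610229, Ifng at chr10:118441046-118445892 and Stat2 at chr10:128270559-128292849. The chains Ifnar2 (chr16:91372783-91405589), Ifnar1 (chr16:91485238-91507441) and Ifngr2 (chr16:91547072-91565623) lie in that order on the plus strand of chromosome 16. Irf1 spans chr11:53770014-53778374 on the plus strand and Irf7 spans chr7:141262706-141266481 on the minus strand. Ifnar2 overlaps the annotated gene Gm21970 on its own strand, and Irf1 overlaps Gm17334 and Irf7 overlaps Phrf1 on the opposite strand. Whether counting used strand is not stated, and the effect of these overlaps on the counts was not tested.

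Promoter sequence (RefSeq, GRCm38.p6, from 250 bases before to 50 bases after the RefSeq start) was available for all 8 genes. The RefSeq start can differ from the end of the gene span given above. For Stat2 the window ends at 128270547, before the span begins at 128270559. Distances below are counted from the RefSeq start. It was searched for TTCNNNGAA, the core of the gamma-activated sequence, which reads the same on both strands, and for GAAANNGAAA or its reverse complement TTTCNNTTTC, the core of the interferon-stimulated response element. The promoters of Irf1, Stat2 and Irf7 are shown because these 3 genes are themselves induced by interferon, with a match to either motif in capitals and the rest in lower case. They are chr11:53769764-53770063 on the plus strand for Irf1, chr10:128270248-128270547 on the plus strand for Stat2 and chr7:141266375-141266674 on the minus strand for Irf7, each written 5′ to 3′ along the gene.
Irf1: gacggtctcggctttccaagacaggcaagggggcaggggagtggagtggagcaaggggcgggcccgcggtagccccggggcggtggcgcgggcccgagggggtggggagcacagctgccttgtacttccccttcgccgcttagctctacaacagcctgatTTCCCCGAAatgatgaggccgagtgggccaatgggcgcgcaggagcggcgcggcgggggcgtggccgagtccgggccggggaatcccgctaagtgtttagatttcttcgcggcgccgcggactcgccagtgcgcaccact
Stat2: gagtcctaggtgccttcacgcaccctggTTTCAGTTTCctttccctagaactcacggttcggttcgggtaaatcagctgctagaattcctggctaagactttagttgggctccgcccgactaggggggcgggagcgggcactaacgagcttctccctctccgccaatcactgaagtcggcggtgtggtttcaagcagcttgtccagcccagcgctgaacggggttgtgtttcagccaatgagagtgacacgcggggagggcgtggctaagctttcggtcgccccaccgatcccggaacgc
Irf7: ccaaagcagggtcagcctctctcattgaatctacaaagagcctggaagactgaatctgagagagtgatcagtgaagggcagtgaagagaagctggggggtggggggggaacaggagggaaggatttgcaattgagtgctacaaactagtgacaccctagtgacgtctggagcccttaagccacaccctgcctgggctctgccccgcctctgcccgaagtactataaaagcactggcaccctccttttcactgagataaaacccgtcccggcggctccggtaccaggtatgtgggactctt
The Irf1 match to TTCNNNGAA begins 90 bases before the start, and the Stat2 match to TTTCNNTTTC begins 222 bases before it. Ifng, Ifnar1 and Ifnar2 hold 1 match to TTCNNNGAA each, at 249, 5 and 214 bases before the start, while the windows of Irf7, Ifngr1, Ifngr2 and a second annotated start of Irf1 hold neither motif. Over 32851 promoter windows of the same length, 8.30% hold the first motif and 3.44% the second. A match here describes the letters of the window and is no evidence of binding.

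Of 35968 barcodes, 31982 had at least 1000 unique molecular identifiers (UMIs, each standing for 1 captured RNA molecule) and at most 30% mitochondrial UMIs, and the median per kept barcode was between 5801 and 6389 UMIs in the 3 libraries. A cell was assigned to a class by how many different genes of an 8-gene marker list had a UMI, which placed 26946 cells in 1 class, left 2720 that met the gates of several lineages (mixed) and 2316 that met none (ungated). The classes included 10508 microglia, 9087 oligodendrocytes, 2368 T cells (1374 CD8, 221 CD4, 773 with neither or both), 2019 neuroblasts and 928 endothelial cells. There were also 333 NK cells, 313 neutrophils, 151 border macrophages and 53 monocytes or dendritic cells. The last class is loosely defined: 28 of its 53 cells had exactly the 3 markers that its gate requires. Over all kept barcodes, 1346 were 1 marker short of that gate. The leading genes of each class included at least 1 of its own markers, which the gate itself selects for, so this does not test the classes. For microglia it was only Cx3cr1, and those of T cells also held Ly6c2, a marker of the monocyte or dendritic list. Levels are given as CPM (a gene's UMIs summed over the cells of a class, for every 1000000 UMIs of that class), with an exact Poisson 95% interval that covers counting error only. The libraries were unlike in makeup, and suffix 3 stood apart: it held 907 of the 928 endothelial cells and 127 of the 151 border macrophages but only 20 T cells and 5 NK cells. Between libraries, 110 cell barcodes occurred in 2 and 0 in all 3.

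Ifng RNA was found almost wholly in T and NK cells. These classes held 9395 of the 9735 Ifng UMIs in gated cells, or 96.5% (exact binomial 95% interval 96.1 to 96.9), although they were 2701 of the 26946 gated cells. Pooled over libraries, the level was 630 CPM (617 to 644) in T cells and 592 CPM (560 to 626) in NK cells, whose intervals overlap. The next class, endothelial cells, stood at 3.68 CPM. Within suffix 1 and 2, the CPM of NK cells stood above that of T cells as a whole, without overlap of counting intervals. These intervals leave out spread between cells, and 1 NK cell held 75 of the 1237 Ifng UMIs of its class. They therefore do not settle which of the 2 classes is higher. T cells had 402 CPM (386 to 419) in suffix 1 and 816 CPM (795 to 837) in suffix 2. NK cells had 483 CPM (449 to 518) and 959 CPM (874 to 1049) in the same order. These intervals overlap those of CD8 T cells in both libraries, 429 to 478 CPM and 895 to 949 CPM. The share of cells with an Ifng UMI did not keep this order. It was 58.3% of NK cells and 51.6% of T cells in suffix 1, but 58.0% and 64.4% in suffix 2. Among T cells, CD8 cells had the highest level with 744 CPM (725 to 763), above CD4 cells with 411 CPM (378 to 446). An Ifng UMI was seen in 69.7% of CD8 cells, 50.7% of CD4 cells and 58.3% of NK cells, beside 0.594% of oligodendrocytes, a class with no known part in making interferon gamma. The median depth of oligodendrocytes (6165 UMIs) was above that of T cells (4761 UMIs). After every cell was thinned to 1000 UMIs the shares were 34.9% of CD8 cells, 24.9% of CD4 cells, 30.03% of NK cells and 0.132% of oligodendrocytes.

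The RNA was unevenly spread over the lymphocytes. In T cells with any Ifng UMI the median was 3 UMIs and the highest cell had 86, and 503 of those 1404 cells had 5 or more. In NK cells the median was also 3 and the highest cell had 75. Outside T and NK cells, 176 of 24245 gated cells had an Ifng UMI, and 7 of them, each with 5 or more, held 153 of the 340 UMIs. All 7 also carried at least 1 T or NK marker, against 5.03% of the gated cells of other classes. That share covers all 3 libraries and was not matched to the 7 cells by library or depth. The 26 UMIs of the endothelial class came from 1 cell. Microglia had 197 UMIs, 80 of them in 3 cells, which gave 2.08 CPM (1.80 to 2.39). No Ifng UMI was seen in 315 astrocytes, 174 mural cells, 151 border macrophages or 53 monocytes or dendritic cells; for border macrophages a count of 0 allows up to 3.17 CPM.

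The level of Ifng within lymphocytes differed between libraries. In CD8 T cells it was 453 CPM (429 to 478; 420 cells) in suffix 1, 922 CPM (895 to 949; 948 cells) in suffix 2 and 68.5 CPM (8.30 to 247) in the 6 cells of suffix 3. In CD4 T cells it was 298 CPM (262 to 339) in suffix 1 and 569 CPM (509 to 634) in suffix 2. For NK cells the levels were 483 CPM (449 to 518) and 959 CPM (874 to 1049) in the same order. Suffix 2 was thus the higher of the pair in each of these lymphocyte classes, and the cells of suffix 3 were too few to place. In microglia the level was 1.35 CPM in suffix 1 and 2.96 CPM in suffix 2. Of the 157 UMIs in suffix 2 microglia, 51 lay in 1 cell, against 40 UMIs in all suffix 1 microglia, so this difference rests in part on single cells. In suffix 3, the library with 20 T cells, 0 UMIs were seen in the 1832 microglia and 3623 oligodendrocytes. The part that free RNA or joined cells play in the UMIs outside lymphocytes was not tested.

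**Figure D1:**
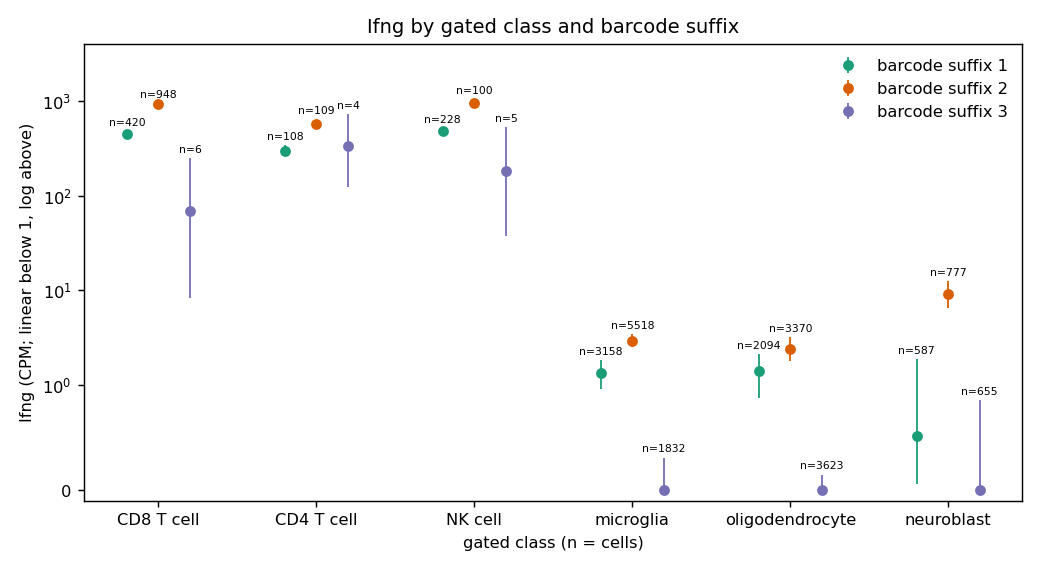
Ifng in 6 gated classes (x axis) in CPM of summed UMIs (y axis, linear below 1 and log above), with 1 point per barcode suffix, bars for the exact Poisson 95% interval and n for cells. CD8, CD4 and NK cells of suffix 1 and 2 lie between 298 and 959 CPM, whereas microglia of those suffixes lie at 1.35 and 2.96 CPM.

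The receptor chains for interferon gamma differed in their pattern over classes. T and NK cells had much Ifngr1 and little Ifngr2, while microglia, neutrophils, border macrophages and monocytes or dendritic cells had both. Ifngr1, the ligand-binding chain, was highest in the cells that held Ifng: 586 CPM (553 to 620) in NK cells and 490 CPM (478 to 502) in T cells, whose intervals do not overlap. Monocytes or dendritic cells (193 CPM), border macrophages (163 CPM) and microglia (162 CPM, 160 to 165) followed with overlapping intervals, then neutrophils (120 CPM). Within suffix 3, the source of 127 of the 151 border macrophages, these did not overlap with microglia: 166 CPM (139 to 196) in border macrophages, 400 CPM (389 to 412) in microglia and 454 CPM (318 to 629) in 7 monocytes or dendritic cells. Mural, endothelial and astrocyte classes lay between 50.5 and 53.0 CPM and did not differ beyond their intervals. Oligodendrocytes (16.5 CPM), choroid plexus (12.2 CPM) and neuroblasts (11.1 CPM) were the lowest classes.

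Ifngr2, the signalling chain, had a different order. Its highest levels were in monocytes or dendritic cells with 139 CPM (108 to 178) and neutrophils with 126 CPM (106 to 149), which overlap, followed by microglia with 98.3 CPM (96.3 to 100) and border macrophages with 59.2 CPM (44.7 to 76.8). T cells had 7.65 CPM (6.22 to 9.31) and NK cells 3.83 CPM (1.65 to 7.55), levels as low as that of oligodendrocytes (8.48 CPM, 7.76 to 9.24) or lower. Among T cells, CD8 cells had 2.91 CPM (1.84 to 4.36), below CD4 cells with 16.7 CPM (10.6 to 25.1). In CD8 cells the low level held in both well filled libraries, with 3.05 CPM in suffix 1 and 2.43 CPM in suffix 2.

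Set beside each other within a class, Ifngr1 UMIs outnumbered Ifngr2 UMIs 64.0-fold (52.5 to 78.9) in T cells and 153-fold (77.3 to 355) in NK cells, but 1.65-fold (1.61 to 1.70) in microglia and 0.950-fold (0.745 to 1.21) in neutrophils. Within suffix 1 and 2 the T cell ratio was 42.7 (33.3 to 55.6) and 122 (85.0 to 183), with 9.67 (4.18 to 27.4) in the 20 T cells of suffix 3, and the microglial ratio was 1.44, 1.24 and 4.12 in suffix 1, 2 and 3. These are ratios of UMI counts of 2 genes that may be captured with unequal efficiency, so the contrast between classes can be read but not the absolute ratio. Both chains were seen in 35.0% of microglia and in 2.998% of T cells, and after thinning to 1000 UMIs in 1.86% and 0.253%. CD8 cells had 1.16% with both and CD4 cells 6.33%. At this depth a cell without a UMI cannot be called negative for the chain.

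The type I receptor was arranged otherwise. Ifnar1 was highest in endothelial cells with 106 CPM (98.2 to 113), neutrophils with 104 CPM (85.9 to 125) and T cells with 85.3 CPM (80.4 to 90.5), and microglia were low with 23.5 CPM (22.5 to 24.5). Ifnar2 was highest in microglia with 177 CPM (174 to 179), endothelial cells with 170 CPM (160 to 180) and neutrophils with 157 CPM (134 to 182), whose intervals overlap in that order, and T cells had 60.7 CPM (56.5 to 65.1). The count ratio of Ifnar1 to Ifnar2 was 0.133 (0.127 to 0.139) in microglia, 0.622 (0.567 to 0.681) in endothelial cells and 1.41 (1.28 to 1.54) in T cells. Both chains were seen in 33.0% of endothelial cells, 13.1% of microglia and 8.95% of T cells at full depth, and in 2.05%, 0.447% and 0.507% after thinning. Since 907 of the 928 endothelial cells belong to suffix 3, their values describe that library: Ifnar1 was 105 CPM there and 160 CPM (97.4 to 246) in the 19 endothelial cells of suffix 2.

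**Figure D2:**
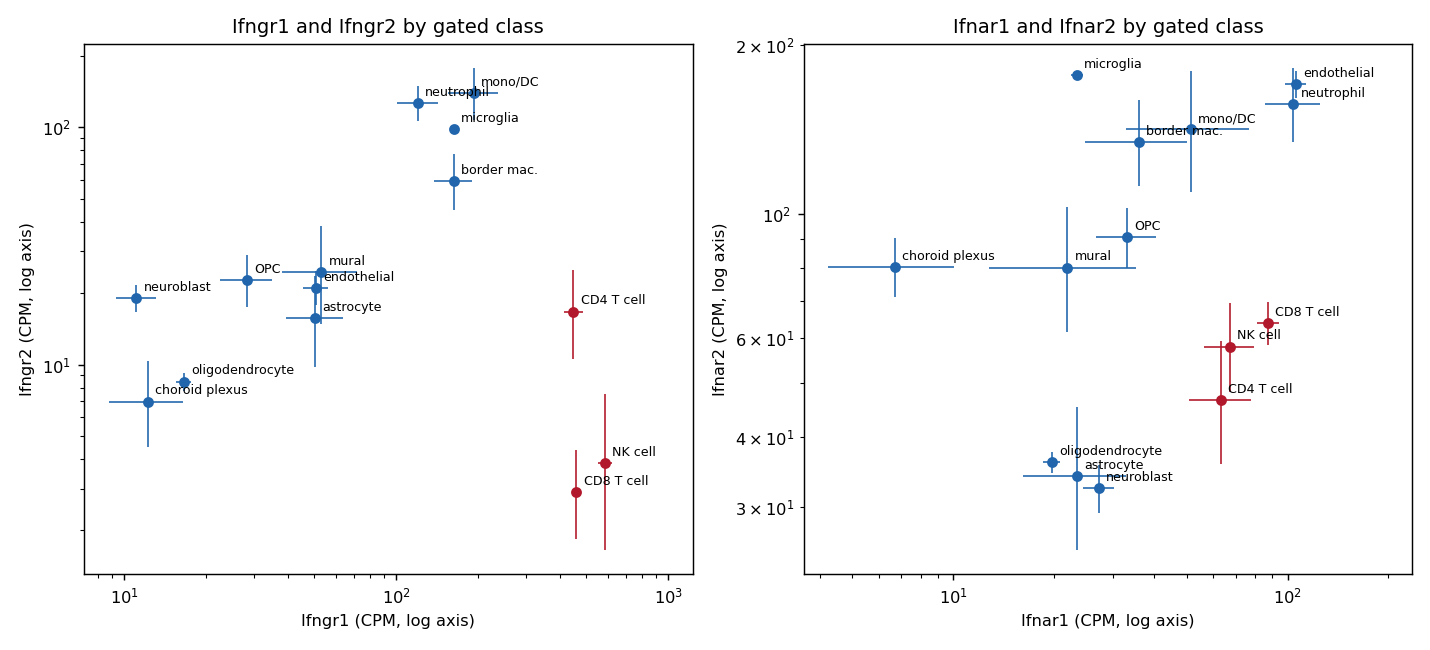
CPM of the 2 chains of the interferon gamma receptor (left) and of the type I receptor (right) by gated class on log axes, pooled over libraries, with exact Poisson 95% intervals as bars and lymphocyte classes in red. CD8, CD4 and NK cells have Ifngr1 at 447 CPM or above with Ifngr2 at 16.7 CPM or below, and microglia have Ifnar2 at 177 CPM with Ifnar1 at 23.5 CPM.

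Pooled over libraries, neutrophils had the highest levels of all 3 transcription factors, but not in each library. Stat2, which acts downstream of the type I receptor, was low throughout, from 29.6 CPM (20.4 to 41.5) in neutrophils to 5.82 CPM in choroid plexus, and each class overlapped with its neighbour in the order. Irf1 reached 319 CPM (287 to 354) in neutrophils, then 200 CPM (170 to 235) in mural cells, 164 CPM in endothelial cells and 162 CPM in T cells, and was 5.28 CPM in oligodendrocytes. Irf7 was 235 CPM (207 to 265) in neutrophils, 204 CPM (165 to 249) in monocytes or dendritic cells, 128 CPM in microglia and 111 CPM in T cells, against 2.13 CPM in astrocytes; the intervals of the first 2 classes overlap. The neutrophil values came mostly from suffix 1 (222 cells) and suffix 2 (70 cells). In suffix 2, Irf1 was 281 CPM (211 to 365) in neutrophils, 409 CPM (286 to 566) in 14 mural cells and 399 CPM (296 to 526) in 19 endothelial cells, and Irf7 was 281 CPM in neutrophils and 353 CPM (278 to 442) in 26 monocytes or dendritic cells. Stat2 in that library was 35.7 CPM (14.4 to 73.6) in neutrophils and 70.6 CPM (22.9 to 165) in 12 border macrophages. All of these suffix 2 intervals overlap those of the neutrophils for the same gene. In the 21 neutrophils of suffix 3, Irf1 was 64.6 CPM (26.0 to 133) and Irf7 was 36.9 CPM (10.0 to 94.5).

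**Figure D3:**
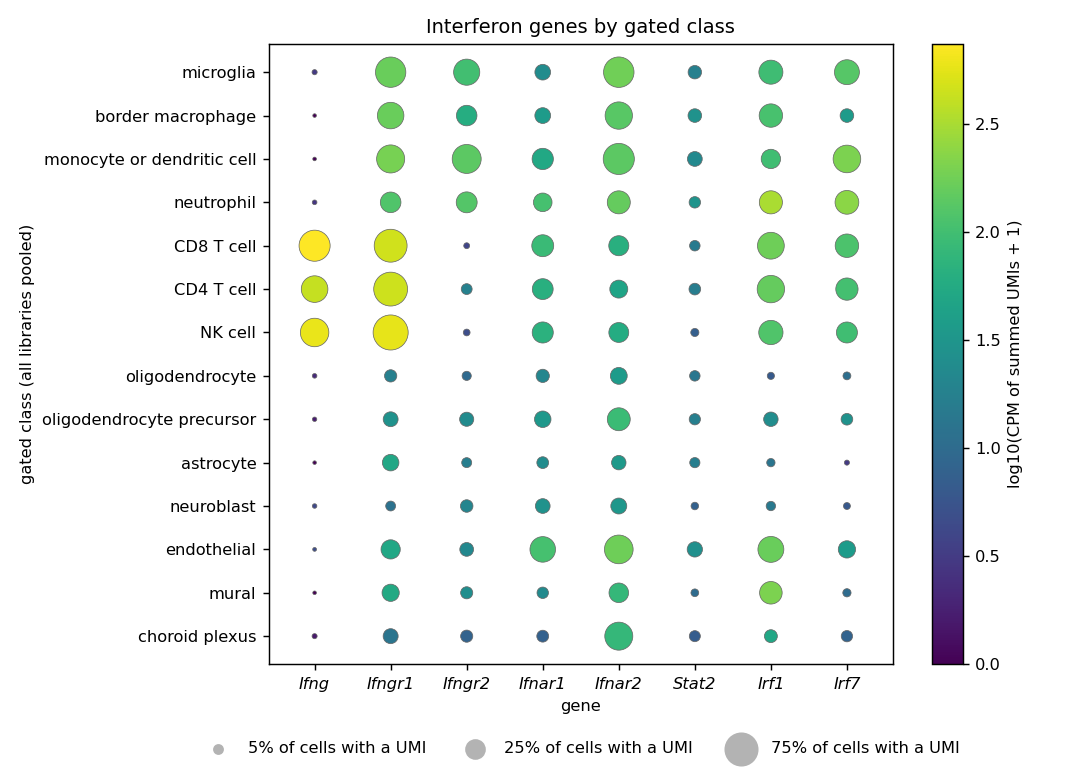
The 8 genes (x axis) in 14 gated classes (y axis), pooled over libraries, with colour for log10 of CPM plus 1 and dot area for the percent of cells with a UMI at full depth. Ifng is bright only in the CD8 T, CD4 T and NK rows, which also have the brightest Ifngr1. Ifngr2 is faintest in the CD8 T and NK rows, and the CD4 T row (16.7 CPM) lies near astrocytes (15.6 CPM).

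Microglia and T cells were compared directly as the largest sensing class and the largest class with Ifng. Over 6598 genes with a mean of at least 10 CPM, 16.1% were at least 2-fold higher in microglia and 12.8% at least 2-fold lower (10 CPM added to both sides). Of the 8 genes, Ifngr2 and Ifnar2 were at least 2-fold higher, Ifng, Ifngr1 and Ifnar1 at least 2-fold lower, and Stat2, Irf1 and Irf7 neither. Without the added 10 CPM, microglia had 12.9-fold (10.54 to 15.83) the Ifngr2 level of T cells and 2.91-fold (2.71 to 3.13) the Ifnar2 level. T cells had 303-fold (263 to 351) the Ifng level of microglia, 3.01-fold (2.925 to 3.102) the Ifngr1 level and 3.63-fold (3.38 to 3.91) the Ifnar1 level. The Ifng fold depended on the gate: the level in microglia was 0.00330 of that in T cells, but 0.00182 with 1 fewer marker, 0.00540 with 1 more and 0.0117 with mixed cells given to the lineage with most markers. Irf1 in microglia was 0.579 of the T cell level (0.552 to 0.607), and Stat2 was 1.11 of it (0.957 to 1.30), an interval that includes 1.

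Some of these ratios rested on which libraries were pooled. The Ifngr1 ratio of microglia over T cells was 0.332 pooled, 0.263 without suffix 3 and 0.435 without suffix 2. T cells had 484 and 492 CPM of Ifngr1 in suffix 1 and 2, against 136 and 124 CPM in microglia. For Irf1 the ratio was 0.579 pooled, 0.4999 without suffix 3 and 0.762 without suffix 2. In suffix 3, Irf1 was 182 CPM in microglia and 126 CPM (65.2 to 220) in 20 T cells. The Stat2 ratio was 0.927 without suffix 1 and 1.61 without suffix 2. In suffix 1, Stat2 was 14.2 CPM (12.9 to 15.65) in microglia and 9.57 CPM (7.19 to 12.5) in T cells, without overlap. In suffix 2 it was 17.7 CPM (16.6 to 18.9) in microglia and 19.3 CPM (16.2 to 22.8) in T cells. The Ifngr2 ratio was 20.8 without suffix 1 and 7.83 without suffix 2, since T cells had 11.3 CPM in suffix 1 and 4.03 CPM in suffix 2. Irf7 was 1.15 of the T cell level pooled (1.08 to 1.21) but 0.969 without suffix 1 and 0.873 after thinning. Within libraries, microglia stood above T cells for Irf7 in suffix 1 (102 against 69.3 CPM) and in suffix 2 (162 against 146 CPM) at full depth, but after thinning suffix 2 had 158 CPM in microglia and 170 CPM in T cells.

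Within microglia, 3 of the genes varied between libraries. Ifngr1 was 136 CPM (132 to 140) in suffix 1, 124 CPM (121 to 127) in suffix 2 and 400 CPM (389 to 412) in suffix 3. For Irf1 the levels were 68.0 CPM (65.1 to 71.0), 88.7 CPM (86.2 to 91.3) and 182 CPM (175 to 190) in the same order. Irf7 was lowest in suffix 3 and highest in suffix 2, with 102 CPM (98.0 to 105) and 162 CPM (158 to 165) in suffix 1 and 2 and 41.4 CPM (37.8 to 45.2) in suffix 3. Suffix 3 was thus the highest library for Ifngr1 and Irf1 and the lowest for Irf7, with no overlap of intervals. Of the 7 genes that passed the level filter these 3 differed at least 2-fold between the highest and lowest suffix, beside 12.1% of 6660 genes.

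The other chains varied less. Ifngr2 was between 94.8 and 101 CPM in all 3 libraries, with overlapping intervals. Ifnar1 lay between 21.3 and 26.5 CPM, Stat2 between 14.2 and 17.7 CPM, and Ifnar2 between 133 CPM in suffix 3 and 190 CPM in suffix 2. The microglia of suffix 3 differed in much else: the summed level of the 8 microglia markers was 10284 CPM against 5131 and 4690 CPM, Apoe was 779 CPM against 71092 and 65212 CPM, and the osteopontin gene Spp1 was 4.47 CPM against 7896 and 15158 CPM. The summed level of 10 interferon-stimulated genes was 1733 CPM in suffix 3, 5685 CPM in suffix 1 and 8223 CPM in suffix 2, and all 10 were highest in suffix 2. How much of the differences in Ifngr1, Irf1 and Irf7 goes with condition, tissue sampled or handling cannot be told apart.

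**Figure D4:**
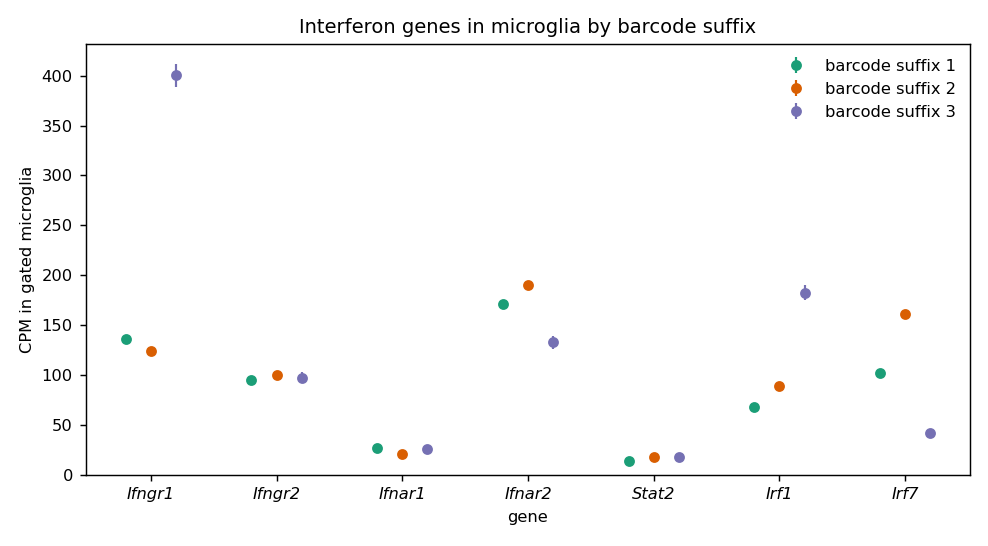
CPM of 7 genes in gated microglia (y axis) by gene (x axis) and barcode suffix (colour), with exact Poisson 95% intervals as bars, in 3158, 5518 and 1832 cells for suffix 1, 2 and 3. Suffix 3 lies highest for Ifngr1 (400 CPM) and Irf1 (182 CPM) and lowest for Irf7 (41.4 CPM), and the 3 suffixes lie within 94.8 to 101 CPM for Ifngr2.

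Microglia were then split by how many of the 10 interferon-stimulated genes (Ifit1, Ifit2, Ifit3, Isg15, Rsad2, Oasl2, Ifi204, Bst2, Ifi27l2a and Rtp4, none of them among the 8) had a UMI after thinning to 1000 UMIs. The 5096 cells with 3 or more had Irf7 at 170 CPM (167 to 174), the 3937 cells with 1 to 2 had 84.0 CPM, and the 1475 cells with 0 had 38.5 CPM (34.7 to 42.6), a ratio of 4.42 (3.99 to 4.92) between the ends. Within suffix 1, 2 and 3 the Irf7 ratio was 2.69, 3.39 and 3.55. Stat2 was 1.58-fold (1.31 to 1.93) higher at the upper end and 1.55, 1.58 and 2.11-fold higher within the libraries. Irf7 and Stat2 are themselves induced by interferon, so a rise beside the listed genes could be foreseen and is given as description only. With 10 CPM added, Irf7 was the 1 of 7 tested genes at least 2-fold higher, beside 1.28% of 6619 genes. Ifngr1 stood at 0.453 by the same measure, and the share of all genes at least 2-fold lower was not counted.

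Ifngr1 ran the other way. It was 280 CPM (270 to 291) in cells with 0 listed genes and 121 CPM (118 to 124) in cells with 3 or more, a ratio of 0.433 (0.414 to 0.453). Suffix 3 supplied 783 of the 1475 cells with 0 and 186 of the 5096 with 3 or more, and within suffix 1, 2 and 3 the Ifngr1 ratio was 0.762, 0.641 and 0.824, with each interval below 1. With the split made at full depth these were 0.525, 0.338 and 1.03, and in suffix 3 the interval (0.918 to 1.16) included 1. Irf1 had a pooled ratio of 0.594 (0.559 to 0.633) but 0.976 (0.830 to 1.15), 0.768 (0.680 to 0.870) and 0.856 (0.736 to 0.992) within the libraries, all nearer to 1 than the pooled ratio. Ifngr2 was near even at 0.905 (0.846 to 0.969). Cells with 3 or more listed genes were deeper, with a median of 9320.5 UMIs against 5668; its part in these ratios was not tested beyond the thinning.

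**Figure D5:**
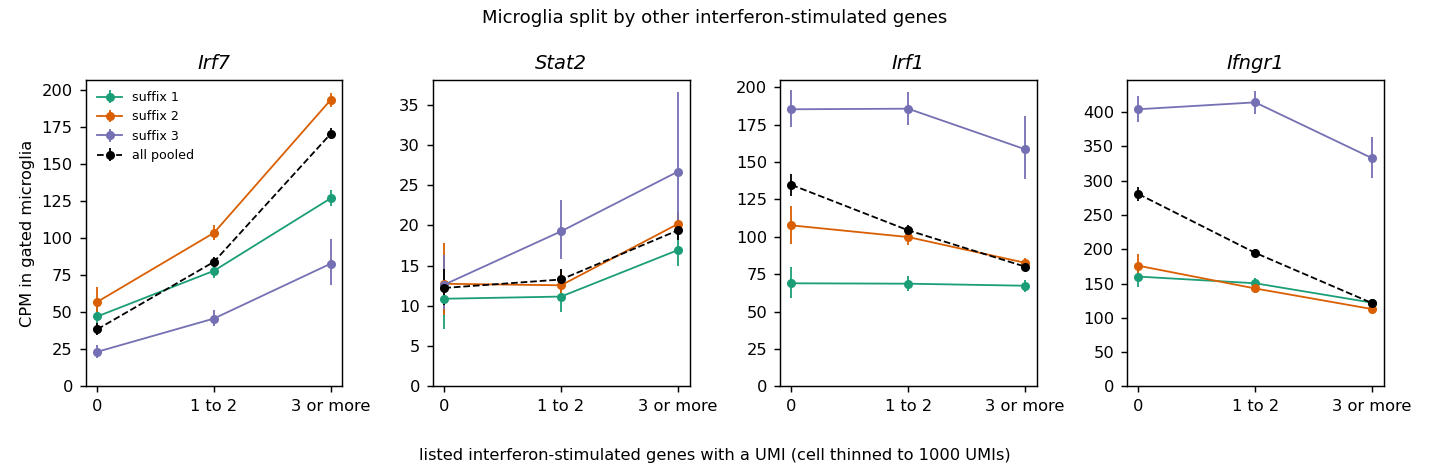
CPM of Irf7, Stat2, Irf1 and Ifngr1 in microglia (y axes, each from 0) by the number of 10 interferon-stimulated genes with a UMI after thinning (x axis), for each barcode suffix and pooled (dashed), with exact Poisson 95% intervals. Irf7 is higher from left to right in all 3 suffixes, and the pooled Irf1 line has a steeper slope than the line of any 1 suffix.

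A second split of microglia used 8 targets that lean to interferon gamma (Cxcl9, Ciita, Gbp2, Gbp4, Gbp5, Iigp1, Ubd and Serpina3g), and its outcome rested on depth. The targets were unequal in level in microglia. Gbp5 (54.8 CPM), Gbp2 (28.2 CPM) and Cxcl9 (21.8 CPM) were the highest. Iigp1 had 8.16 CPM, Gbp4 1.53 CPM, Ciita and Serpina3g 0.412 CPM each and Ubd 0 CPM. After thinning, 55 microglia (0.523% of the class) had a UMI of 2 or more of them, of which 39 belonged to suffix 2, 15 to suffix 1 and 1 to suffix 3; at full depth 946 cells (9.003%) did. Irf1 was 226 CPM (190 to 268) in the 55 cells and 93.2 CPM in the 9698 microglia with 0, a ratio of 2.43 (2.03 to 2.88), but with the split made at full depth it was 86.1 against 102 CPM, a ratio of 0.840 (0.788 to 0.895), so no direction is given for Irf1. Irf7 was 402 CPM (353 to 456) against 123 CPM after thinning, a ratio of 3.28 (2.87 to 3.73), and 189 against 106 CPM at full depth, a ratio of 1.78 (1.70 to 1.87). The cells with 2 or more targets at full depth were deeper than those with 0, with a median of 13235 against 6005 UMIs.

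CD8 T cells were also divided by whether an Ifng UMI remained after thinning, which 480 cells had and 894 had not. This divides higher from lower Ifng, not presence from absence. At full depth the 480 cells had 1854 CPM of Ifng and the 894 cells had 230 CPM. Below, with and without Ifng refer to the thinned count. Irf1 was 213 CPM (195 to 232) in cells with Ifng and 151 CPM (141 to 162) in those without, 1.41-fold (1.26 to 1.57), and 1.29 and 1.42-fold within suffix 1 and 2. Irf7 was 1.47-fold higher (1.29 to 1.69), and 1.61 and 1.32-fold within the libraries. Ifngr1 was lower in the cells with Ifng, 393 against 489 CPM, at 0.803 of the level (0.746 to 0.864), with 0.796 and 0.813 within suffix 1 and 2. Socs1, a brake on JAK kinases, was 1.78-fold (1.55 to 2.05) higher in the cells with Ifng, with an interval above 1 in both libraries. The share of all genes that differ as much between these cells was not counted.

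The rest of the pathway was counted by list in microglia against T cells. Over all 6598 genes tested, 16.1% were at least 2-fold higher in microglia and 12.8% at least 2-fold lower. Of 7 JAK-STAT mediators 6 passed the level filter; 0 were at least 2-fold higher in microglia and 3 lower, among them Jak2 (21.4 against 53.9 CPM) and Stat4 (1.004 against 142 CPM), the STAT used by the interleukin-12 receptor. Of 8 brakes, Socs3 (298 against 66.2 CPM) and the phosphatase gene Ptpn6 (145 against 66.2 CPM) were higher in microglia, and Socs1 (23.5 against 107 CPM) and Cish (8.94 against 112 CPM) lower. Of 6 further interferon regulatory factors, Irf5 (80.4 against 4.87 CPM) and Irf8 (320 against 26.3 CPM) were higher and Irf4 (1.12 against 28.4 CPM) lower. The highest class for Irf8 was NK cells, with 770 CPM. The median log2 fold was -0.76 for the mediators, -0.19 for the brakes and -0.01 for these factors, beside -0.11 over all genes tested.

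Among 12 inducers of Ifng and their receptors, 7 passed the filter, with 2 higher in microglia and 5 lower. The shares over all genes tested, 16.1% higher and 12.8% lower, stand beside this count and those below. The 2 higher were Il12b (35.3 against 0.541 CPM), which encodes 1 chain of interleukin-12, and Il18 (31.3 against 2.86 CPM, highest in astrocytes with 195 CPM). Il12a, which encodes the other chain of interleukin-12, did not pass the filter, with 0.0951 CPM in microglia and 0.0773 CPM in T cells. The 5 lower were Il18r1, Il18rap, Il2rb, Tbx21 and Eomes, at 20.8 to 162 CPM in T cells and 0.718 CPM or less in microglia. They are receptors and transcription factors found in Ifng-producing lymphocytes. Il18rap was highest in neutrophils (52.0 CPM, with 44.1 CPM in NK cells), and Eomes is also an NK gate marker. Of 8 other interferons and receptors 3 passed, all higher in microglia: Ifnb1 (2306 against 53.5 CPM), Ifna2 (59.8 against 2.24 CPM) and the shared chain Il10rb (78.7 against 29.0 CPM). Among the lists used for the splits, 7 of the 10 interferon-stimulated genes were higher and 1, Ifi27l2a, lower, and of the 8 gamma-leaning targets 2 were higher and 2 lower. Ifnlr1, the interferon lambda receptor chain, had 7 UMIs in all gated cells.

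Likeness of pattern was measured by Pearson's r of log2(CPM + 10) over the 13 classes with at least 50 cells, among 11122 genes, as a description without a p-value, since the points share libraries. Ifng was most like Cd160, Lax1 and Fasl (r = 0.998 each). Ifngr1 was most like H2-K1 (r = 0.938), Epsti1 and Gm5547, and Ifngr2 was close to Spi1 and Alox5ap (r = 0.930 each). Ifnar1 had AI467606, Arl5b (r = 0.897) and Usp38, and Ifnar2 had Il6ra (r = 0.887), Trim25 and Itga5. Stat2 had Klf3 (r = 0.866), Mfsd1 and Lgals8, Irf1 had Rcsd1 (r = 0.912), Stat6 and Cast, and Irf7 had Tap1 (r = 0.962), Sp140 and Rab27a. Between the 2 chains of a receptor r was low, 0.20 for Ifngr1 with Ifngr2 and 0.38 for Ifnar1 with Ifnar2, while Ifngr1 with Irf7 had 0.77 and Ifngr2 with Ifnar2 had 0.72.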

How the data were processed

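Single-cell suspensions of mouse brain tissue were run on the Chromium 3' v3 chemistry, 1 library for each of 3 conditions. Per the methods and processing notes, the authors mapped reads to mm10 with STAR in Cell Ranger 3.1.0, down-sampled reads across libraries and aggregated them into 1 matrix. The deposited values are raw whole-number UMI counts, not scaled to cell depth, and the 3 libraries are told apart only by barcode suffix. Down-sampling evens out depth between libraries but not the capture of single RNAs, so low genes are missed in many cells. The Seurat 3.1.1 steps of the study (its upper limits on UMIs and genes, batch correction and clusters) were not applied, except that the upper limits were tried as an alternative.

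From these counts, barcodes with at least 1000 UMIs and at most 30% mitochondrial UMIs were kept (31982 of 35968). A cell entered a class with UMIs of at least 4 of 8 markers (6 for oligodendrocytes, 3 for monocytes or dendritic cells). T against NK cells, precursors against astrocytes and choroid plexus against ependymal cells were resolved by the larger number of markers. Border macrophages could have at most 5 microglial markers, and monocytes or dendritic cells at most 1 T and 1 NK marker. These numbers were set after marker counts were seen. No doublet caller was run, and mixed cells were left out. Classes under 50 cells were not described. The members, marker lists and pathway lists were chosen with earlier results of these data known. Named genes are the 8 members, the genes of the lists and the 3 genes most like each member (at least 20 CPM in 1 class). Some genes that this rule names are not reported here.

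Intervals for CPM and for ratios of counts are exact Poisson, and those for shares exact Clopper-Pearson, at 95%, and cover counting error only. A count of 0 allows up to 3 counts. With 1 library per condition and no map from suffix to condition, no test was made. Cells were thinned with seed 7. Gating, folds, intervals and thinning were tested on simulated data. Alternatives were 1 more or fewer marker, mixed cells given to the lineage with the most markers, at most 10% mitochondrial UMIs, at least 2000 UMIs, the upper limits of mean plus 2 SD, leaving out each suffix, thinning, an offset of 1 CPM, a 1.5-fold threshold and splits at full depth; the within-suffix ratios in CD8 cells and of Ifngr1 to Ifngr2 UMIs were added after seeing the data. Annotation was GENCODE vM21 (99.6% of identifiers matched). Python 3.11.15, NumPy 2.4.6, pandas 2.3.3, SciPy 1.17.1 and Matplotlib 3.10.9 were used.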

Additional observations from a re-analysis of the deposited data

Results flagged for a closer look

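Ifng UMIs outside the gated classes were looked at because the comparisons of the report do not use those barcodes. The 2720 mixed cells held 1755 Ifng UMIs, of which 99.3% lay in the 453 mixed cells that met the T or NK gate together with another gate; 1 mixed cell had 189. The 2316 ungated cells held 866 Ifng UMIs, of which 84.8% lay in the 304 cells with 2 or more T or NK markers. Barcodes left out by the UMI and mitochondrial limits held 155. Of all 12356 Ifng UMIs in kept barcodes, gated T and NK cells held 76.0%.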

How the results depend on the processing

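Of 138 alternative values, 81 kept their direction and stayed within the counting interval of the reported value (counts of genes within 1.5 times), 52 moved beyond it and 5 reversed. Reversal was counted only for ratios whose reported interval excludes 1; the Stat2 ratio of microglia over T cells, whose interval includes 1, also fell below 1 without suffix 1 (0.927). The cause was not tested. No paired analysis was possible because no test was made and each group has 1 sample. The share of Ifng UMIs in T and NK cells was 93.8% with 1 more marker, 97.9% with 1 fewer, 87.3% with mixed cells given to the lineage with the most markers and 97.0% thinned, and 95.9% to 97.9% with each suffix left out. Microglia over T cells for Ifng was 0.00540 with 1 more marker, 0.00182 with 1 fewer and 0.0117 with mixed cells given out. For Ifngr1 it was 0.351, 0.317 and 0.350 in these settings, 0.363 with the study's upper limits and 0.387 thinned. For Ifngr2 it was 9.86 with mixed cells given out and 16.8 thinned, for Ifnar2 2.46 thinned, and for Irf1 0.612 with the upper limits and 0.634 thinned. The Irf7 ratio reversed to 0.873 thinned and to 0.969 without suffix 1. With each suffix left out the range was 0.00242 to 0.00375 for Ifng, 0.263 to 0.435 for Ifngr1, 7.83 to 20.8 for Ifngr2, 0.252 to 0.322 for Ifnar1, 2.73 to 3.02 for Ifnar2, 0.927 to 1.61 for Stat2, 0.4999 to 0.762 for Irf1 and 0.969 to 1.25 for Irf7. The highest over the lowest suffix in microglia, after thinning, was 2.55 for Ifngr1, 1.07 for Ifnar1, 1.62 for Ifnar2, 1.40 for Stat2, 2.01 for Irf1 and 4.75 for Irf7. Splitting microglia by interferon-stimulated genes at full depth gave 0.395 for Ifngr1, 0.506 for Irf1 and 9.47 for Irf7, and reversed Ifngr2 to 1.12. The split by interferon gamma-leaning targets at full depth reversed Irf1 to 0.840 and Ifnar2 to 1.04 and gave 1.78 for Irf7. Where a class has few cells in a library, depth limits its values as the intervals show.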
